A study of Arabidopsis thaliana with 4 samples.

Results

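Jasmonate synthesis and MYC factor genes of Arabidopsis thaliana were examined for chromatin marked by the DELLA protein RGA, a nuclear repressor of growth. The 10 genes were taken by locus identifier from 27432 coding genes of the nuclear chromosomes: LOX2 (AT3G45140), LOX3 (AT1G17420), LOX4 (AT1G72520), AOS (AT5G42650), AOC1 (AT3G25760), AOC2 (AT3G25770), OPR3 (AT2G06050), MYC2 (AT1G32640), MYC3 (AT5G46760) and MYC4 (AT4G17880). Chromatin immunoprecipitation with anti-FLAG beads and sequencing (ChIP-seq) was done on whole seedlings grown for 10 days in continuous light. The tested line carried the FLAG-tagged mutant RGA called rga11 in the background labelled sly1 dP, and the line it was set against carried FLAG-tagged wild-type RGA in the same sly1 dP background. The control of the mutant line is labelled sly1 dP and that of the wild-type line RGA sly1 dQ. SLY1 is the F-box protein through which gibberellin signalling removes DELLA proteins. With 1 library in each group there is no replicate, and no difference between the lines was tested. The labels give neither the promoter of the tagged genes nor how many transformed lines or plants were used. The series title asks about the PFYRE subdomain of DELLA proteins and association with target chromatin, and the comparison here asks which jasmonate genes carried called peaks in each line.

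Jasmonate is a lipid hormone of wounding, defence and flower fertility. Lipoxygenases (LOX) oxygenate linolenic acid in plastids, allene oxide synthase (AOS) and allene oxide cyclase (AOC) turn the product into oxophytodienoic acid, and the reductase OPR3 acts on that compound in peroxisomes before side-chain shortening gives jasmonic acid. The amino-acid conjugate of jasmonic acid is bound by the receptor COI1 together with JAZ repressors. The JAZ proteins are then degraded, which frees the bHLH transcription factors MYC2, MYC3 and MYC4. DELLA proteins are known to bind JAZ repressors. RGA has no DNA-binding domain of its own, and its ChIP peaks are commonly read as places reached through partner proteins or chromatin. How the peaks here arose was not tested.

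The deposited lists held 505 peaks for the FLAG-rga11 mutant and 6116 for the FLAG-RGA wild type, each called by the authors against its control. The control of the mutant call goes by another name in the deposited list than in the labels. Its identity is thus not settled, and the mutant folds and q values rest on it. The authors' fold of a peak is ChIP coverage over the control level at the summit, and folds of different lists rest on different controls. From each fold and its −log10 p the number of ChIP fragments over the summit and the control level that the caller used were solved. The genome background of the control was 7.21 fragments in the mutant call, after the caller's scaling, and 14.5 in the wild-type call. At that background the lowest fold that could enter the list was 2.93 in the mutant and 2.2 in the wild type. A gene counts as marked when a summit lies inside it or within 1 kb of either end. Positions are those of the TAIR10 genome. Gene strand was not used, so gene starts and ends were not told apart. Intervals in brackets after a fold are exact 95% Poisson intervals of the ChIP fragments, carried to the fold with the control held fixed. They cover counting error only.

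Of the 10 genes, LOX4 alone was marked in the mutant, and LOX2, LOX3, LOX4, AOS, AOC1, OPR3, MYC2 and MYC4 were marked in the wild type. The mutant share was 1 of 10 (exact 95% Clopper-Pearson interval 0.253 to 44.5%), beside 1.79% of all coding genes and 1.84% of those within the members' range of length, 1403 to 4244 bp. The wild-type share was 8 of 10 (44.4 to 97.5%), beside 23.2% of all coding genes and 25.2% of those within that range of length. Clopper-Pearson intervals, here and for the other pathway genes below, treat genes as independent draws. These genes were chosen, some are neighbours or close relatives, and each line has 1 library, so the intervals are no test against those shares. With the summit inside the gene it was 1 of 10 in the mutant, beside 1.22% of coding genes, and 6 of 10 in the wild type, beside 13.2%. LOX4 was thus the 1 gene of 10 marked in both lists, as were 1.31% of coding genes. The 8 genes had 13 wild-type peaks between them, and LOX2, LOX3, LOX4 and AOC1 had at least 2 summits each, as did 3.98% of all coding genes. AOC2 and MYC3 had no summit in reach in either list. At a −log10 q of 10 or more, 5 genes remained marked in the wild type, LOX2, LOX3, LOX4, AOC1 and OPR3, beside 6.54% of coding genes. Of these, LOX3, LOX4 and OPR3 were marked only by summits with a control level over 5 times background, as described below. The reach of 1 kb took in a LOX2 summit at 915 bp and the MYC4 summit at 720 bp, and left out AOC2, whose nearest wild-type summit was 1796 bp away.

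**Figure D1:**
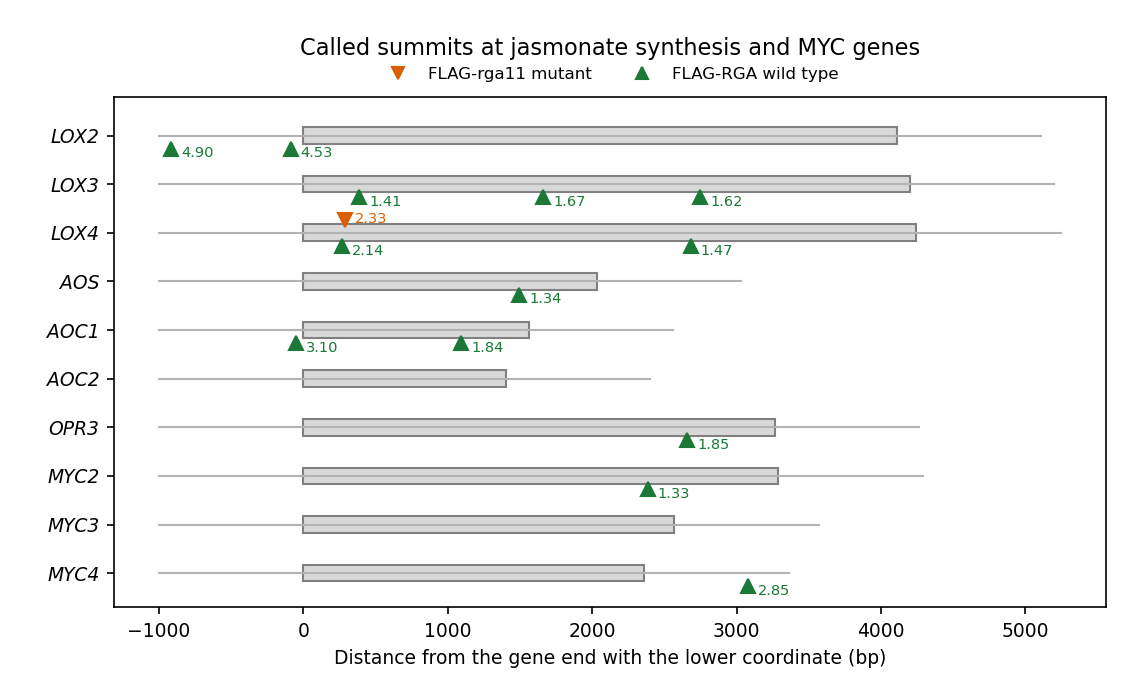
Called summits at the 10 genes, each drawn to scale as a grey bar with 1 kb on either side; the x axis is the distance in bp from the gene end with the lower coordinate. Orange triangles above the bars are FLAG-rga11 mutant summits and green triangles below are FLAG-RGA wild-type summits, with the authors' fold beside each. The 1 mutant summit lies in LOX4, 17 bp from a wild-type summit, and the wild-type summits at LOX2 and MYC4 lie outside the genes.

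The wild-type peaks fell into 2 kinds by place and by control level. The 4 peaks with a summit outside the gene, at LOX2, AOC1 and MYC4, had folds of 2.85 to 4.9 and control levels of 1 to 1.5 times background. The 9 peaks with a summit inside, at LOX3, LOX4, AOS, AOC1, OPR3 and MYC2, had folds of 1.33 to 2.14, and at 8 of them the control level was over 5 times background, with a median of 13.8 over the 9. The ranges of fold of the 2 kinds did not overlap at these genes. With control at background, though, the wild-type call could list no fold under 2.2, so no conclusion is drawn from that gap. Over the whole wild-type list the ranges did overlap, at 1.22 to 6.73 inside coding genes and 1.44 to 8.28 outside but within 1 kb. Over the whole wild-type list, peaks inside coding genes had a median fold of 2.22 and a median control level of 1.84 times background, and 9.38% of them had a control level over 5 times background. Peaks outside but within 1 kb had a median fold of 2.78 and a median control level of 1.43 times background.

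LOX3, LOX4, AOS, OPR3 and MYC2 were marked in the wild type only by inside peaks with a control level over 5 times background. Over all coding genes 1.16% were marked in the wild type only by summits with a control level over 5 times background. With such summits left out, 3 of the 10 genes remained marked, LOX2, AOC1 and MYC4, beside 22.0% of all coding genes. Whether the raised control level plays a part in those calls was not tested.

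**Figure D2:**
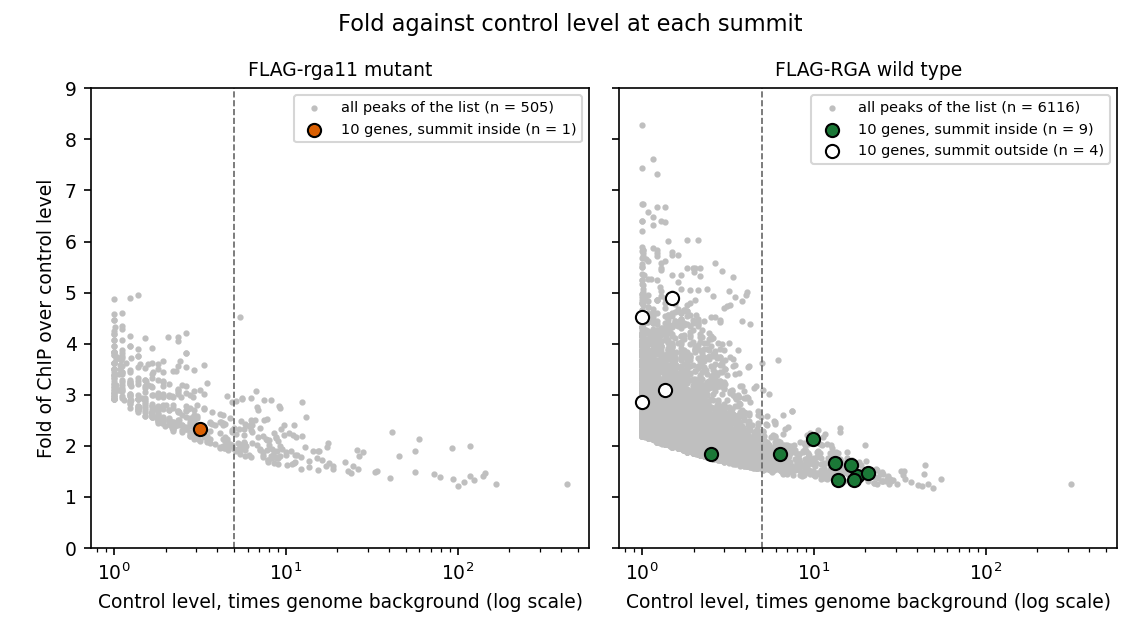
Fold of ChIP over control (y axis) against the control level at the summit in multiples of the genome background (x axis, log scale), for the FLAG-rga11 mutant list (left) and the FLAG-RGA wild-type list (right). Grey points are all peaks of each list, filled circles are peaks inside the 10 genes and open circles those outside; the dashed line is 5 times background. The lower edge of the grey cloud falls as control rises, and 8 of the 9 inside peaks of the wild type lie right of the dashed line.

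LOX2, a lipoxygenase known for jasmonate made in wounded leaves, had no mutant peak, and the nearest mutant summit was 228500 bp away. In the wild type it had the highest fold of the group at 2 separate peaks, 826 bp apart and both off the lower-coordinate end of the gene. The outer peak ran from 16524232 to 16524427 on chromosome 3, with 110 ChIP fragments over its summit and a fold of 4.90 (4.04 to 5.90). Its summit lay 915 bp from LOX2 and inside AT3G07045, a long non-coding RNA gene, so it is not particular to LOX2. The inner peak ran from 16525078 to 16525268 with a summit 89 bp from the gene, 69 ChIP fragments and a fold of 4.53 (3.54 to 5.72). The control level was 1.5 times background at the outer summit and at background at the inner one. The outer fold exceeded that of 98.6% of wild-type peaks and the inner one that of 97.7%. Among 6363 marked coding genes LOX2 ranked 63 by highest fold. The coding genes without a mutant summit whose highest wild-type fold was closest to it were AT5G12040 and AT5G12043 (4.90 each) and AT4G29950 (4.89), by absolute difference of fold in 1 wild-type library. AT5G12040 and AT5G12043 had the same difference, 0.003, and whether they share 1 summit was not examined.

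LOX4 and LOX3 are a closely related pair of lipoxygenases with roles in fertility and wounding. LOX4 was the only gene of the group with a peak in both lists. The mutant peak ran from 27308633 to 27308909 on chromosome 1, with 117 ChIP fragments over the summit, a fold of 2.33 (1.94 to 2.79) and a −log10 q of 4.7. The wild-type peak at the same place ran from 27308701 to 27308853, with 309 ChIP fragments, a fold of 2.14 (1.91 to 2.4) and a −log10 q of 29. The summits were 17 bp apart, 285 bp inside the lower-coordinate end in the mutant and 268 bp in the wild type. The levels under these folds differed between the calls. ChIP coverage was 7.63 times the background of its own call in the mutant and 21.4 times in the wild type, and control was at 3.19 times background in the mutant call and at 9.94 times in the wild-type call. The mutant fold was higher than that of 33.5% of mutant peaks and the wild-type fold higher than that of 31.8% of wild-type peaks, so LOX4 stood below the middle of both lists. The mutant call of LOX4 was lost when peaks of −log10 q of 5 or more were kept. Over all 293 pairs of overlapping peaks of the lists the median control level was 2.77 times background in the mutant call and 4.83 times in the wild-type call, and the mutant one was lower in 256 pairs.

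Deeper in LOX4 a further wild-type peak, from 27311142 to 27311442, had 438 ChIP fragments, a control level of 20.6 times background and a fold of 1.47 (1.34 to 1.62), with no mutant peak over it. LOX3 had no mutant peak and 3 wild-type peaks, all inside the gene. At least 3 wild-type summits were in reach of 0.671% of coding genes. From the lower-coordinate end these summits lay at 387, 1659 and 2746 bp. Their folds were 1.41 (1.27 to 1.56), 1.67 (1.49 to 1.86) and 1.62 (1.46 to 1.79), over control levels of 17.8, 13.3 and 16.5 times background. LOX3 and LOX4 thus each had a wild-type summit 268 to 387 bp inside the lower-coordinate end and another deeper inside, at 2746 bp in LOX3 and 2682 bp in LOX4. The LOX3 summit at 1659 bp, with the highest fold in that gene, had no such counterpart in LOX4. As strand was not used, these distances do not show the same place in both genes. Peaks within 1 gene share their fragments' source and are not independent.

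The genes of the steps after the lipoxygenases had no mutant peak, and among those marked in the wild type the highest folds ran between 1.34 at AOS and 3.1 at AOC1. AOS, the P450 enzyme of the allene oxide step, had 1 wild-type peak inside the gene, from 17099002 to 17099291 on chromosome 5, with 267 ChIP fragments over a control level of 200 and a fold of 1.34 (1.18 to 1.5). That fold was below all but 0.376% of the wild-type list. The nearest mutant summit was 258221 bp away.

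AOC1 and AOC2 encode allene oxide cyclases and stand side by side on chromosome 3, with AOC3 next to them. The nearest mutant summits were 332263 bp from AOC1 and 329530 bp from AOC2. In the wild type AOC1 had a peak from 9403616 to 9403801 whose summit was 54 bp off the lower-coordinate end, with 63 ChIP fragments, a control level of 1.36 times background and a fold of 3.1 (2.39 to 3.95), above 82.5% of the list. A weaker peak inside AOC1 had a fold of 1.84 (1.44 to 2.33) over a control level of 2.52 times background, the only inside peak of the group with a control level under 5 times background. AOC2 had no summit in reach, and for AOC3 the nearest wild-type summit was 4287 bp away.

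OPR3 had no mutant peak, and the nearest mutant summit was 70047 bp away. Its wild-type peak lay inside the gene, from 2361671 to 2361846 on chromosome 2, with 172 ChIP fragments, a control level of 6.4 times background and a fold of 1.85 (1.59 to 2.15), above 11.3% of the list.

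The 3 MYC factor genes differed from each other in the wild type and had no mutant peak, with nearest mutant summits 127632 bp away for MYC2, 203575 bp for MYC3 and 173392 bp for MYC4. MYC2, the leading factor of wound responses, had 1 wild-type peak inside the gene, from 11800307 to 11800832 on chromosome 1, with 328 ChIP fragments over a control level of 17.1 times background. Its fold of 1.33 (1.19 to 1.48) was the lowest of the group, above 0.311% of the list. In the gene table AT1G32630 spans the same summit, so the peak is not assigned to MYC2 alone. MYC4 had a wild-type peak outside the gene, from 9936327 to 9936492 on chromosome 4, with 43 ChIP fragments, control at background and a fold of 2.85 (2.08 to 3.81). Its summit was 720 bp from MYC4 and 456 bp from AGD8 (AT4G17890), which is the nearer gene. MYC3 had no summit in reach, the nearest wild-type one being 5728 bp away with a fold of 2.33.

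**Figure D3:**
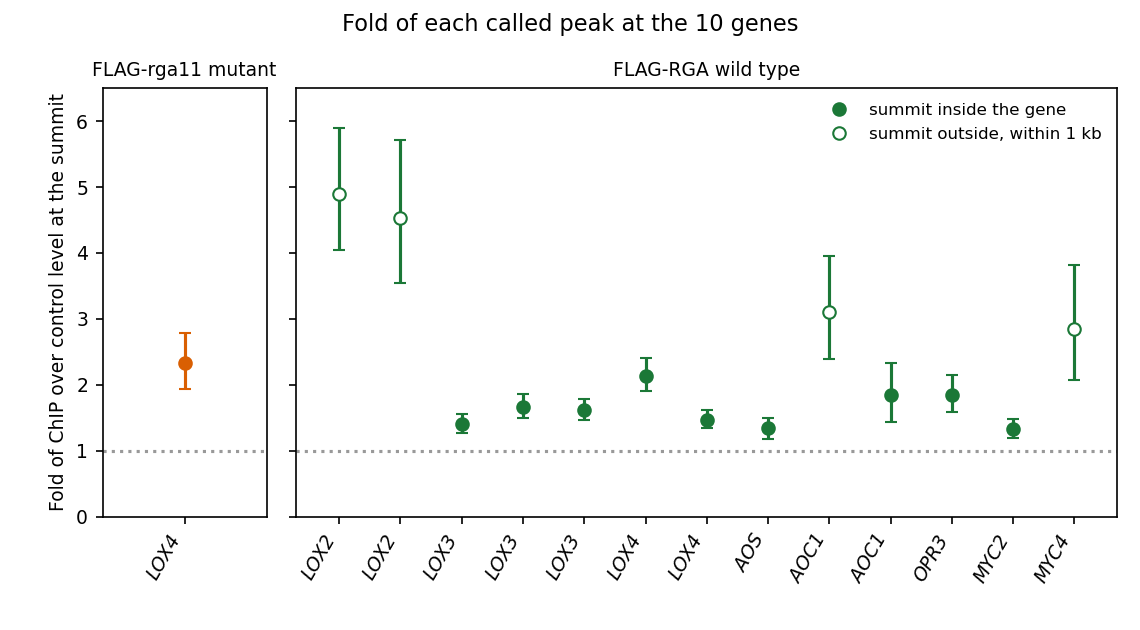
Authors' fold of ChIP over control (y axis) for each called peak at the 10 genes, the FLAG-rga11 mutant on the left and the FLAG-RGA wild type on the right; bars are exact 95% Poisson intervals of the ChIP fragments with the control held fixed. Filled points lie inside a gene and open points outside; the dotted line marks a fold of 1. The mutant has 1 point, LOX4 at 2.33, and the open wild-type points at LOX2, AOC1 and MYC4 are the 4 highest of 13.

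A missing mutant peak was read against what the mutant call could detect. Each wild-type fold was carried over to the mutant call with the control level at the same multiple of background, and the resulting −log10 p was set beside 6.03, the lowest of the mutant list. Of the 13 wild-type peaks 8 would have passed: both at LOX2 (22.3 and 14.4), 2 at LOX3 (8.99 and 9.59), both at LOX4 (17 and 7.48), that outside AOC1 (8.32) and that in OPR3 (7.27). Of these 8, that at LOX4 with 17 overlapped a mutant peak and the other 7 did not. Over the whole list 40.3% of wild-type peaks would have passed, and 7.18% of those overlapped a mutant peak. The remaining 5, at AOS (3.22), MYC2 (3.59), inside AOC1 (3.54), at MYC4 (5.66) and at the first LOX3 summit (5.28), would not have entered the mutant list at the same fold, so their absence there was not detectable as a difference at this depth.

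Counting error narrowed this set. At the lower bound of the Poisson interval 4 of the 13 peaks would have passed, both at LOX2, the LOX3 peak with 9.59 (6.08 at the bound) and the LOX4 peak. Control levels at shared sites were lower in the mutant call than in the wild-type call, so the control was also lowered by the median ratio at overlapping peaks, 0.528, where it was over 5 times background. Then 4 peaks passed as well, both at LOX2, that outside AOC1 and the shared LOX4 peak. The LOX2 peaks passed in each of these settings. The lowered control could not change them or the peak outside AOC1, since their control levels were under 5 times background. At LOX2 a fold of 2.63 at the outer and 2.93 at the inner summit would have reached 6.03 in the mutant call. The wild-type list had 4.90 and 4.53 there. Mutant peak numbers run to 778 while 505 peaks are listed, so a peak that passed the call could still have been dropped from the list.

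**Figure D4:**
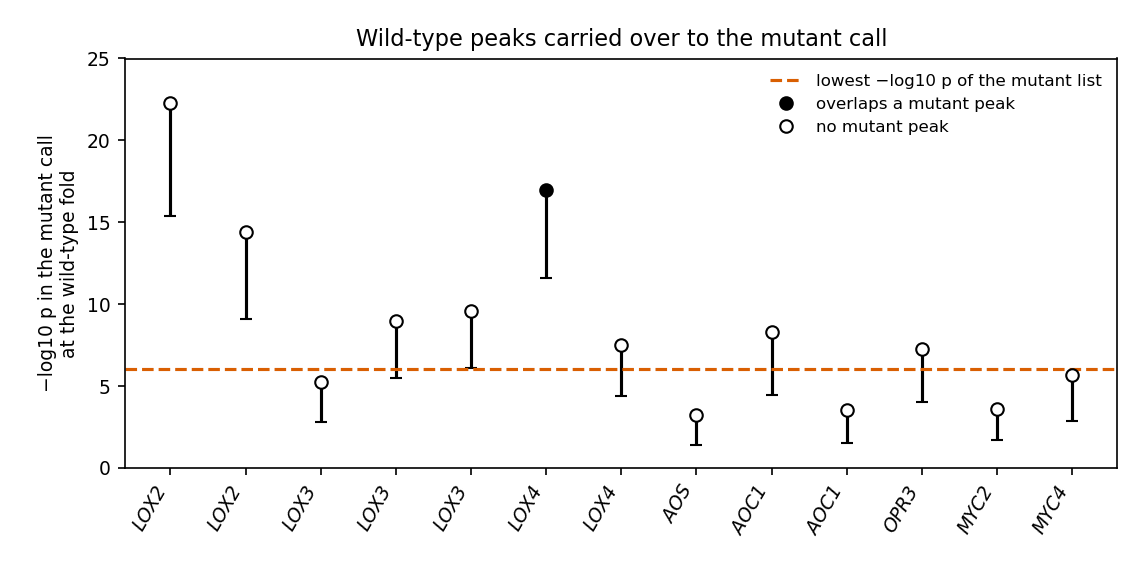
The −log10 p that each of the 13 wild-type peaks would have in the mutant call at its wild-type fold (y axis), by gene and in order of position; bars reach down to the value at the lower Poisson bound of the ChIP fragments. The dashed line is 6.03, the lowest −log10 p of the mutant list. The filled point is the LOX4 peak that overlaps a mutant peak, and both LOX2 points stay above the line with their bars.

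Other genes of the pathway were read in the same way from a list of 40, from lipases and β-oxidation to jasmonate turnover, the receptor complex, further regulators and response genes. In the mutant 3 of 40 were marked (7.5%, 1.57 to 20.4%), and in the wild type 10 of 40 (25%, 12.7 to 41.2%), beside the 1.79% and 23.2% of all coding genes given above. The wild-type share was near that of all coding genes. For the 37 genes of this list unmarked in the mutant, the nearest mutant summit was 2559 to 389854 bp away, with a median of 82700 bp. The distances of the unmarked members, from 54383 bp at LOX3 to 332263 bp at AOC1, lay within that range. The median of the highest wild-type fold was 2 over the 8 marked genes of the synthesis and MYC group, 2.36 over the 10 marked genes of this list and 2.37 over all marked coding genes.

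All 3 genes marked in the mutant were also marked in the wild type, as were 360 of the 490 coding genes marked in the mutant. OPR1, a reductase related to OPR3, had 2 mutant peaks inside the gene with folds of 2.59 (2.15 to 3.09) and 2.06 (1.71 to 2.46), and 1 wild-type peak over the weaker of them with a fold of 1.73 (1.45 to 2.04). OPR2 next to it was in reach of the shared peak only, so the 2 genes are not independent. OPCL1, the ligase that activates the precursor for β-oxidation, had a mutant fold of 1.69 (1.51 to 1.90) and a wild-type fold of 1.35 (1.25 to 1.46), over control levels of 11.4 and 33.8 times background. As at LOX4, each of these shared peaks lay inside the gene, with control lower in the mutant call than in the wild-type call (3.61 against 5.58 times background at OPR1).

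The highest wild-type folds of the list were at the co-repressor gene TPL (3.99, summit 485 bp from the gene) and AT5G05600 (3.36, inside). Next came LOX6 (2.59, inside), a further lipoxygenase, the NAC factor gene ANAC019 (2.49, 929 bp away) and the lipase gene DAD1 (2.49, 404 bp away). The TPL summit was nearer to the long non-coding RNA gene AT1G05197, 87 bp away. That of ANAC019 lay inside AT1G07843, another such gene, so neither peak is particular to the listed gene. AT2G38240 (2.23, inside) and the bHLH gene NIG1 (2.00, 404 bp away) followed. The NIG1 summit lay inside the coding gene AT5G46825, so it is not particular to NIG1. These 7 jasmonate genes had no mutant summit in reach, which follows from OPR1, OPR2 and OPCL1 having been treated above. Of the 10 listed genes marked in the wild type, those 3 were marked in both lists. OPR1 and OPR2 shared a peak. The matching count over coding genes was 360 of 6363. Carried over to the mutant call, the named peaks at AT2G38240 (4.39) and NIG1 (3.56) stayed below 6.03. A weaker AT2G38240 peak, with a fold of 2.01, had its summit 877 bp from the gene and inside PDX1.1. It reached 9.47 (5.76 at the lower Poisson bound), over control at 6.46 times background, and no mutant peak overlapped it. The named peaks at TPL (18.2), AT5G05600 (7.88), LOX6 (7.26), ANAC019 (8.65) and DAD1 (16.3) passed 6.03. At the lower Poisson bound those at TPL (12.3) and DAD1 (11) still passed. Those at AT5G05600 (4.18), LOX6 (4) and ANAC019 (5.2) did not. Control at the DAD1 summit was 5.85 times background, and the lowered control was read for the members only. The other 30 jasmonate genes were marked in neither list. Among them were the receptor gene COI1, the conjugating enzyme gene JAR1 and NINJA, which links JAZ proteins to TPL. Their nearest wild-type summits were 6903 bp away at COI1, 13547 bp at JAR1 and 38436 bp at NINJA.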

How the data were processed

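Peak lists of the 2 tagged lines were used; the controls entered through the authors' calls. The build is TAIR10, and the tools are MACS2 2.2.7.1, Bowtie2 2.4.5, deepTools 3.1.3 and Trimmomatic 0.39, per the submitters' processing notes. The deposited fold of a peak is the ratio of ChIP coverage over control level at the summit, with a pseudocount of 1. The authors deposited a −log10 q-value and a −log10 p-value with each peak, and a score, which was not used. Peak numbers run to 778 in the mutant and 7873 in the wild type, above the peaks listed, so part of the called peaks was used. No source used here says how the others were dropped.

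ChIP fragments and control level were solved from fold and p (Poisson tail, Python 3.11.15, scipy 1.17.1), within 0.001 of the deposited −log10 p, with mutant ChIP coverage scaled by 0.47. The solving and the gene assignment were tested on simulated data. Read totals were not analysed here. Genes came from a RefSeq table on TAIR10.1, taken to share coordinates with TAIR10 and used for names and distances; all 50 listed genes were found in it. A planned motif search was not run, since no sequence was used here.

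The members and lists were chosen with earlier results of these data known. Text names all 10 members, listed genes marked in the mutant or among the 8 highest wild-type folds, and the 3 genes closest to the leading member. Genes sharing a member's summit are named too, as are genes over or nearer to the summit of a listed gene. Receptor-side genes without peaks were named after their values were seen.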

Additional observations from a re-analysis of the deposited data

How the results depend on the processing

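Counts were repeated under 37 alternatives, and 27 stayed within 1.5 times the value reported. With peaks of −log10 q of 5 or more 0 members were marked in the mutant, and at 10 or more they were 0 in the mutant and 5 in the wild type, while the other jasmonate genes were 0 in the mutant and 6 in the wild type. With summits inside the gene only, 5 other jasmonate genes were marked in the wild type. With control at most 5 times background the wild-type counts were 3 members and 6 other jasmonate genes. Peaks passing the mutant call numbered 4 at the lower Poisson bound and 4 with the control lowered, a setting chosen after seeing the data. Overlap with the mutant stayed at 1 peak under both other overlap rules. A reach of 2 kb added AOC2 in the wild type (9 members), and assignment to the nearest coding gene removed MYC4 (7). With 1 library per group no replicate was left out. No paired analysis was possible because each group has 1 library. The scaled-down coverage of the mutant call limits what its list can hold, and folds under 2.93 at background were not listed there.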
